A study of Drosophila melanogaster with 24 samples.

Results

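Embryos in which a K26A mutant of the histone deacetylase HDAC3 was supplied to a maternal HDAC3 knockdown were compared with embryos that had the knockdown alone. The comparison takes 8 of the 24 RNA-seq libraries of the series, the 4 labelled rescue K26A and the 4 labelled HDAC3 shRNA, set against each other by replicate number and described over all genes. Rescue K26A embryos were labelled tub-GAL4/shRNA HDAC3 with, in addition, the transgene rescueK26A, which resists the hairpin. HDAC3 shRNA embryos were labelled tub-GAL4/shRNA HDAC3 without a transgene. The other libraries were rescue WT, rescue Y303F and rescue HEBI (tub-GAL4/shRNA HDAC3 with the transgene rescueWT, rescueY303F or rescueHEBI) and the control, tub-GAL4/+. Their levels are given only where named, but they entered the model fit behind the calls. There were 4 replicates of each of the 6 genotypes, and all were pools of whole embryos collected 2 to 4 h after egg laying.

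Every genotype carried the maternal driver tub-GAL4, which is active in the germline of the mother, so that knockdown began in the egg. Per the study, the embryos came from mothers with these elements, so an embryo of a pool need not carry each of them. Per the study, the rescue transgenes were under the promoter of HDAC3 itself and sat at a single landing site on the second chromosome, and the hairpin was on chromosome 3 in a stock that carried the marker mutations y, sc, v and sev. Each rescue was therefore a line of its own, and differences between lines that lie outside the transgene cannot be told apart from effects of the mutation. The samples were whole embryos, so fewer cells of a type and less RNA per cell cannot be told apart either.

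HDAC3 is a class I histone deacetylase that works as the catalytic subunit of a corepressor complex. In flies its partner is SMRTER, encoded by Smr, the relative of the mammalian corepressors NCoR and SMRT, and contact with the deacetylase activating domain of the partner switches the enzyme on. The K26A protein has a lysine replaced by alanine and the HEBI protein carries a set of substitutions, both modelled on changes that disturb catalysis or corepressor binding of mammalian HDAC3. At the age sampled, embryos pass from the syncytial blastoderm through cellularisation into gastrulation, maternal RNA is being cleared and the zygotic patterning genes come on.

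The targeted gene could not be checked in the count table. HDAC3 (FBgn0025825, 3R from 5472810 to 5474600, minus strand, coordinates of the dm6 assembly in the Ensembl annotation) had 0 counts in all libraries of rescue K26A and of HDAC3 shRNA, and so had CG45100, whose annotated exons cover the same bases (100% of the exon bases shared). Neither depletion of the endogenous RNA nor expression of the transgene could therefore be read from the deposited count table, and genotypes are as labelled here. The study, working from the reads, reports that little HDAC3 RNA was left in HDAC3 shRNA and that rescue K26A had mutant RNA only. Its western blot put K26A protein at about the level of rescue WT. Of its neighbours, Snr1, which encodes part of the Brahma remodelling complex (3R from 5470926 to 5472754), had 356, 335, 275 and 362 CPM (read counts scaled to a library of 1 M) in rescue K26A replicates 1 to 4, against 371, 313, 251 and 348 CPM in HDAC3 shRNA (log2 change 0.05, SE 0.09, adjusted p = 0.793). Hcs, which encodes a ligase for biotin (3R from 5474899 to 5485393), stood at 22.9, 20.8, 8.58 and 7.52 CPM in rescue K26A, against 10.3, 9.46, 6.39 and 4.27 CPM in HDAC3 shRNA. It was higher in each pair and passed the adjusted p but not the 2-fold limit (log2 change 0.92, SE 0.20, adjusted p = 0.00846, and 0.760 without the replicate block). Per the study, the rescue transgenes also hold sequence on both sides of HDAC3. By these coordinates that sequence takes in part of the Hcs gene and part of Snr1. Whether RNA from the transgene adds to the counts of Hcs or Snr1 was not tested.

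Library totals were 17.4 to 22.4 M counts in rescue K26A and 19.4 to 26.6 M in HDAC3 shRNA. Of 17559 gene identifiers, 14419 had at least 1 count in these 8 libraries and 10003 were tested. The leading principal component, with 48.1% of the variance, parted replicates 1 and 2 from replicates 3 and 4 in every genotype, and libraries with the same number deviated together (r = 0.704, 0.658, 0.676 and 0.794 for the 4 pairs of rescue K26A with HDAC3 shRNA). The replicate number was therefore a term of the model. Adjusted p-values without this block are given beside the calls that it decides.

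A gene was called where edgeR's quasi-likelihood test gave a p, adjusted over all genes tested after Benjamini and Hochberg, no higher than 0.05 and the change was at least 2-fold. By this rule 102 genes (1.02% of those tested) were higher and 45 genes (0.450%) were lower in rescue K26A than in HDAC3 shRNA. The median over all genes tested was 0.05 on the log2 scale. The higher genes were mostly scarce RNAs, with a median of mean levels of 2.32 CPM in rescue K26A and 0.457 CPM in HDAC3 shRNA, and 11 of the 102 had 3 counts or fewer over the 4 HDAC3 shRNA libraries. The lower genes were better covered, with medians of 7.94 CPM in rescue K26A and 20.9 CPM in HDAC3 shRNA. All 4 rescue K26A libraries lay outside the range of the HDAC3 shRNA libraries for 52 of the 102 higher and 23 of the 45 lower genes, against 2.16% of all genes tested. Of the 45 lower genes 31.1% were on the X chromosome, where 16.3% of the genes tested lie.

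These counts rested heavily on the pairing, on single libraries and on the other genotypes in the fit. With only the 2 compared genotypes fitted, with the block, 52 genes were called higher and 38 lower. Of the 102 higher and 45 lower genes, 47 and 33 were kept there. Without the replicate block 12 genes were called higher and 7 lower, all of them among the 102 and the 45. Replicates 1 and 2 alone gave 182 higher and 37 lower, replicates 3 and 4 alone gave 52 and 131, and 16 higher and 20 lower genes were called in both subsets. The higher count was 58 without rescue K26A replicate 3, 63 with replicate 2 of HDAC3 shRNA left out and 67 with its replicate 1 left out, and the lower count was 71 without rescue K26A replicate 1. A core of 40 higher and 23 lower genes was called in each of the 24 fits that left out 1 library.

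**Figure D1:**
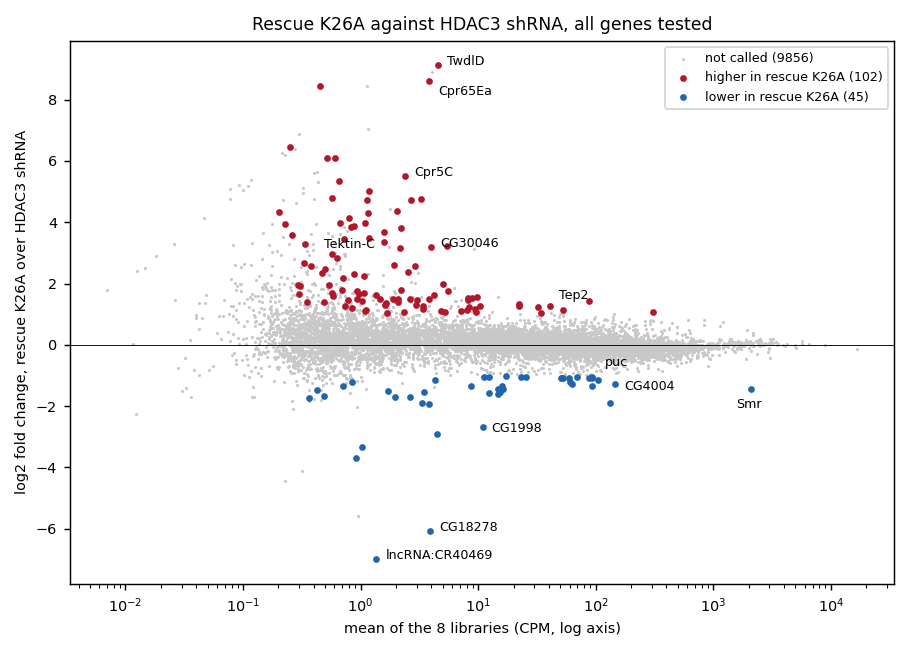
Log2 fold change of rescue K26A over HDAC3 shRNA (vertical axis) against the mean level of the 8 libraries in CPM (horizontal, log axis) for the 10003 genes tested. Red points are the 102 genes called higher and blue points the 45 called lower in rescue K26A; red points lie mainly at low levels, while blue points reach the abundant Smr.

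Smr, the gene for the HDAC3 partner SMRTER, was the most abundant of the lower RNAs. Smr (FBgn0265523, X from 12684203 to 12742618, minus strand) stood at 2443, 952, 848 and 454 CPM in rescue K26A replicates 1 to 4, against 5698, 2509, 2411 and 1361 CPM in HDAC3 shRNA. It was lower in each pair, but the groups overlapped, because both genotypes were highest in replicate 1 and lowest in replicate 4. The log2 change was -1.43 (SE 0.21, adjusted p = 0.000420), and it was lost without the block (-1.35, adjusted p = 1.0). In rescue K26A Smr was still above the control, which had 851, 514, 362 and 185 CPM (log2 change 1.23, adjusted p = 0.000352). Set directly against the other rescues, Smr did not pass against rescue WT (-0.29, adjusted p = 0.447) and stood 0.87 higher than in rescue HEBI (adjusted p = 0.0125), which is under the 2-fold limit.

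A further pair of lower genes lies in or beside Smr, and both were picked out after their values were seen. CG4004, which lies upstream of Smr on the other strand (FBgn0030418, X from 12744212 to 12749785), had 83.2, 80.1, 87.4 and 89.5 CPM in rescue K26A, against 213, 245, 176 and 205 CPM in HDAC3 shRNA. These groups did not overlap and varied little within themselves (log2 change -1.29, SE 0.12, adjusted p = 2.78e-06, and 9.74e-05 without the block). The non-coding RNA lncRNA:CR43963, inside the Smr gene (X from 12717624 to 12730953), had 0.675, 1.57, 0.938 and 1.38 CPM in rescue K26A, against 2.28, 8.87, 2.70 and 2.51 CPM in HDAC3 shRNA (log2 change -1.70, adjusted p = 0.00599, and 0.136 without the block). This RNA lies on the strand of Smr and shares 3.60% of its exon bases with it. Total RNA was sequenced, so reads of unspliced Smr RNA over its other bases cannot be told apart from its own.

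Several other genes fell. CG1998 (FBgn0030485, X from 13409369 to 13413074) had 4.00, 3.59, 2.05 and 2.11 CPM in rescue K26A, against 27.1, 22.6, 13.5 and 12.3 CPM in HDAC3 shRNA. Every rescue K26A library was below every HDAC3 shRNA library (log2 change -2.67, SE 0.26, adjusted p = 3.46e-06, and 0.00349 without the block), and rescue K26A did not pass against the control, which had 1.69 to 2.45 CPM (0.44, adjusted p = 0.200). CG1998 also stood below rescue WT, which had 12.4, 13.8, 6.90 and 4.00 CPM (log2 change -1.60, SE 0.25, adjusted p = 0.00197, and 0.174 without the block).

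puc, the phosphatase that is both a target and an inhibitor of JNK signalling (3R from 8105332 to 8122294), had 97.2, 87.4, 39.4 and 34.6 CPM in rescue K26A, against 183, 217, 98.3 and 75.8 CPM in HDAC3 shRNA. The groups overlapped, although each pair was lower (log2 change -1.16, SE 0.12, adjusted p = 4.86e-06, and 0.809 without the block). Atf3, a bZIP transcription factor gene (X from 1242740 to 1275284), had 17.8, 11.9, 3.66 and 1.99 CPM in rescue K26A, against 29.6, 28.7, 17.7 and 7.60 CPM in HDAC3 shRNA. It was lower in each pair with overlapping groups (log2 change -1.43, SE 0.29, adjusted p = 0.00571, and 1.0 without the block). puc and Atf3 were the only called members among 13 tested genes of the stress and JNK list, whose median was -0.20.

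The mucin-related gene Mur2B (X from 1523554 to 1668788) had 10.4, 6.56, 8.98 and 5.78 CPM in rescue K26A, against 30.1, 20.2, 23.3 and 18.1 CPM in HDAC3 shRNA, with no overlap (log2 change -1.55, SE 0.18, adjusted p = 3.48e-05, and 0.135 without the block). CG13252 (3L from 20730591 to 20744508) had 11.0, 11.2, 3.71 and 3.97 CPM in rescue K26A, against 30.7, 29.7, 15.1 and 12.2 CPM in HDAC3 shRNA, again with no overlap (-1.62, SE 0.17, adjusted p = 9.22e-06, and 0.485 without the block). Sdb (2R from 14185204 to 14198368) averaged 6.21 ± 1.71 CPM in rescue K26A and 18.5 ± 3.78 CPM in HDAC3 shRNA (SD, n = 4 each; log2 change -1.58, edgeR adjusted p = 0.000331, and 0.0583 without the block). CG5835 (-1.89, adjusted p = 0.000630, and 0.183 without the block) and CG10337 (-1.35, adjusted p = 0.000226, and 0.0433 without the block), the second chosen after its values were seen, fell with groups that did not overlap.

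Both of the transcription factors at the end of the sex determination pathway, dsx and fru, were lower. dsx (3R from 7924323 to 7967408) had 2.75, 2.75, 0.849 and 0.963 CPM in rescue K26A, against 6.71, 7.12, 3.68 and 2.90 CPM in HDAC3 shRNA, with no overlap (log2 change -1.54, SE 0.31, adjusted p = 0.00599, and 0.474 without the block). fru (3R from 18414273 to 18545586) had 2.18, 2.02, 0.268 and 0.0602 CPM in rescue K26A, against 12.2, 12.7, 4.77 and 1.37 CPM in HDAC3 shRNA. The fru groups overlapped, and its call (-2.91, SE 0.80, adjusted p = 0.0316, and 0.844 without the block) was lost without HDAC3 shRNA replicate 1, 2 or 4 or rescue K26A replicate 2, 3 or 4 (adjusted p up to 0.104). The other 12 tested genes of sex determination and dosage compensation were not called, and the median of the list was 0.04. stil, a regulator of the female germline that was also chosen after its values were seen, had 6.28, 7.79, 2.01 and 4.15 CPM in rescue K26A, against 13.9, 13.5, 11.3 and 11.0 CPM in HDAC3 shRNA (-1.36, SE 0.31, adjusted p = 0.0107, and 0.214 without the block).

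Genes annotated as ncRNA, a class that takes in long non-coding and antisense RNAs, made up 5 of the 45 lower genes (11.1%, against 2.69% of the genes tested) and none of the 102 higher ones, which did include snoRNA:229, annotated as a snoRNA (log2 change 1.67, adjusted p = 0.0466, and 1.0 without the block). lncRNA:CR43837 (X from 6995882 to 6997799) had 10.6, 9.30, 9.60 and 5.84 CPM in rescue K26A, against 17.2, 31.4, 25.6 and 20.2 CPM in HDAC3 shRNA, without overlap (log2 change -1.44, SE 0.20, adjusted p = 0.000331, and 0.105 without the block). It remained 1.46 above rescue HEBI (SE 0.21, adjusted p = 0.000279, and 0.0758 without the block). asRNA:CR44124 (X from 17578689 to 17579135) had 2.34, 2.02, 0.983 and 1.20 CPM in rescue K26A, against 5.89, 7.31, 5.01 and 5.64 CPM in HDAC3 shRNA (-1.94, SE 0.26, adjusted p = 0.000226, and 0.0701 without the block). It shares 44.5% of its exon bases with Ankle2 on the annotation, and whether reads over the shared bases were counted is not known. lncRNA:CR40469 (X from 122493 to 122706), chosen after its values were seen, was at 0 in 3 of 4 rescue K26A libraries and had 1 count in all there, against 234 counts, or 0.934, 5.12, 1.72 and 3.06 CPM, in HDAC3 shRNA. This ratio was 213 in favour of HDAC3 shRNA (exact 95% interval 37.9 to 8457, counting error only), with an edgeR adjusted p of 4.69e-05.

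**Figure D2:**
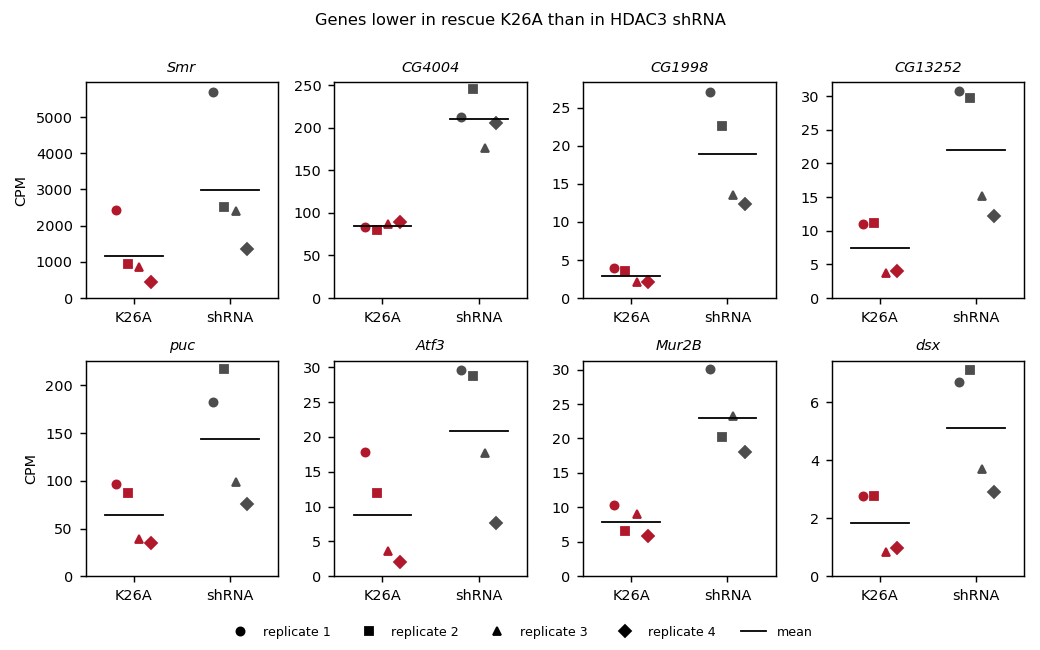
Level in CPM (vertical axis from 0) of 8 genes that were lower in rescue K26A (red, left) than in HDAC3 shRNA (grey, right), 1 point per library with the replicate number as its shape and the mean as a line. For CG4004, CG1998 and Mur2B the groups are apart, while for Smr, puc and Atf3 they overlap and the difference shows within same-number pairs.

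Among the genes that rose, a small group had tight and separate values. CG30046 (FBgn0050046, 2R from 12314117 to 12317573) had 6.44, 5.21, 9.56 and 7.71 CPM in rescue K26A, against 0.525, 0.585, 0.983 and 1.02 CPM in HDAC3 shRNA. The groups were far apart (log2 change 3.20, SE 0.20, adjusted p = 1.57e-08, and 8.04e-06 without the block), and rescue K26A did not pass against the control, which had 5.17 to 7.04 CPM (0.23, adjusted p = 0.306). CG30046 did not pass against rescue WT (0.07, adjusted p = 0.842), but it was below rescue HEBI, which had 13.4, 11.5, 21.2 and 16.7 CPM (-1.12, SE 0.17, adjusted p = 0.000450, and 0.147 without the block).

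Further genes of this kind were chosen after their values were seen, because they were called without the block too. Tep2, which encodes a complement-like thioester protein (2L from 7693727 to 7701601), had 59.9, 48.5, 67.1 and 54.5 CPM in rescue K26A, against 23.8, 22.8, 26 and 22.4 CPM in HDAC3 shRNA (log2 change 1.27, SE 0.10, adjusted p = 5.62e-07). GILT2, for a lysosomal thiol reductase-like protein (3R from 23678895 to 23679855), had 75.5, 72.3, 56.8 and 83.2 CPM in rescue K26A, against 37.1, 33.5, 26.2 and 35.7 CPM in HDAC3 shRNA (1.12, SE 0.10, adjusted p = 1.91e-06). In both genes the groups were separate and each pair differed by a similar factor.

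alpha-Est1, a carboxylesterase-family gene (3R from 7545733 to 7549124), had 17.1, 16, 7.77 and 12.4 CPM in rescue K26A, against 5.08, 4.68, 3.54 and 4.63 CPM in HDAC3 shRNA (1.52, SE 0.14, adjusted p = 2.12e-06). It was also below rescue HEBI (-1.08, SE 0.13, adjusted p = 6.18e-05, and 0.341 without the block). D2hgdh, for D-2-hydroxyglutarate dehydrogenase (X from 2141489 to 2144937), averaged 14.7 ± 2.08 CPM in rescue K26A and 6.16 ± 0.484 CPM in HDAC3 shRNA (SD, n = 4 each; 1.25, SE 0.16, edgeR adjusted p = 0.000121). Tektin-C, a tektin of the kind found inside the microtubule doublets of flagella (3L from 5794405 to 5796543), had 1.61, 2.19, 5.32 and 6.56 CPM in rescue K26A, against 0.0583, 0.536, 0.442 and 0.549 CPM in HDAC3 shRNA (3.17, SE 0.31, adjusted p = 4.25e-06). The Tektin-C level in rescue K26A stayed below the control (log2 change -1.51, adjusted p = 0.000314).

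Of the genes that the naming rule gave, CG14567 had 20.6, 20.8, 6.97 and 10.7 CPM in rescue K26A, against 5.72, 5.02, 3.83 and 3.92 CPM in HDAC3 shRNA (log2 change 1.57, SE 0.17, adjusted p = 1.75e-05, and 0.0721 without the block). CG11275 had 5.66, 6.72, 10.2 and 11.4 CPM in rescue K26A, against 1.4, 1.51, 4.42 and 3.45 CPM in HDAC3 shRNA (1.75, SE 0.20, adjusted p = 2.13e-05, and 0.303 without the block). Neither gene had overlapping groups. CG13653 (1.54, adjusted p = 0.00282, and 1.0 without the block) was higher in each pair, with overlap. CG11700 was high in replicates 1 and 2 of rescue K26A (8.93 and 19.3 CPM) and low in replicates 3 and 4 (2.32 and 2.53 CPM), against 1.37 to 2.10 CPM in HDAC3 shRNA, so that its call (1.98, adjusted p = 0.00944, and 0.0738 without the block) did not hold in replicates 3 and 4 alone (0.52, adjusted p = 0.535).

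Structural proteins of the larval cuticle, which the epidermis of late embryos secretes, formed the list with the most higher genes. Of 63 tested cuticle protein genes, 12 were higher and none was lower, with a median log2 change of 2.25, against 1.02% and 0.450% of all genes and a median of 0.05. Only 2 of these 12 calls stood without the block. The summed level of the cuticle list was 25.3, 160, 174 and 75.1 CPM in rescue K26A replicates 1 to 4, against 10.6, 11.9, 57.5 and 26.8 CPM in HDAC3 shRNA. The sum was higher in each pair, although the groups overlapped. It was highest in rescue K26A replicates 2 and 3. Among the 102 higher genes of all kinds, replicate 2 was the highest rescue K26A library for 46 and replicate 3 for 22. Over all 10003 genes tested these counts were 1973 and 3041. Replicate 2 was thus above, and replicate 3 below, its share of all genes.

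Leaving out rescue K26A replicate 2 alone left 7 called cuticle genes, and leaving out replicate 3 alone left 6. With both left out, a step added after seeing the data, 1 cuticle gene was called and the median of the list was 0.99. The same step left 19 higher and 20 lower genes over the whole table. In the control the sum was 42.8, 271, 1403 and 62.6 CPM, a spread wider than that between rescue K26A and HDAC3 shRNA. Cuticle genes are normally silent at the age sampled. Whether some embryos were older than labelled in these libraries was not tested.

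Among the members, the Tweedle gene TwdlD (3R from 26640025 to 26641054) had 0.727, 15.9, 17.2 and 2.53 CPM in rescue K26A, against 0, 0.0488, 0 and 0 CPM in HDAC3 shRNA. That is 725 counts against 1 count, a ratio of 796 (exact 95% interval 142 to 31470, counting error only), with an edgeR adjusted p of 0.00648 (0.0363 without the block). Its groups did not overlap, yet the lowest and highest rescue K26A libraries were far apart. Cpr65Ea, of the Rebers-Riddiford cuticle family (3L from 7086003 to 7086608), had 0.623, 14.3, 15.1 and 0.783 CPM in rescue K26A, against 0, 0, 0.0491 and 0 CPM in HDAC3 shRNA, or 618 counts against 1 count (ratio 678, exact 95% interval 121 to 26831). Its call (adjusted p = 0.0293, and 0.153 without the block) was lost without any 1 of the 4 HDAC3 shRNA replicates or without rescue K26A replicate 2 or 3 (adjusted p up to 0.0992).

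Cpr51A, another member of the Cpr family, had 0.571, 11.5, 11.4 and 1.69 CPM in rescue K26A, against 0, 0.488, 0.0983 and 0.274 CPM in HDAC3 shRNA (log2 change 4.77, SE 1.25, adjusted p = 0.0243, and 0.323 without the block). This call was lost without HDAC3 shRNA replicate 3 or 4 or rescue K26A replicate 2 or 3 (adjusted p up to 0.0817). The Tweedle genes TwdlW (3.80, adjusted p = 0.00932) and TwdlG (3.88, adjusted p = 0.0138), chosen after their values were seen, were called with no overlap between groups, and neither was called without the block (adjusted p = 0.136 and 0.323). The call of TwdlG was also lost without HDAC3 shRNA replicate 2 or 3. Its neighbour TwdlF, on the opposite strand of 3R, had 2.54, 13.3, 3.66 and 20.5 CPM in rescue K26A, against 0.408, 0.0488, 0.540 and 2.63 CPM in HDAC3 shRNA (3.21, SE 0.95, adjusted p = 0.0426, and 0.783 without the block). The groups of TwdlF overlapped, and its call was lost in 14 of the fits that left out 1 library, among them each that left out an HDAC3 shRNA library or rescue K26A replicate 2, 3 or 4 (adjusted p up to 0.145). CG15022 (3L from 4459193 to 4460317), which is not on the list, had 1.45, 8.35, 6.92 and 3.79 CPM in rescue K26A, against 0.0583, 0.0488, 0.0491 and 0.706 CPM in HDAC3 shRNA (4.74, SE 0.79, adjusted p = 0.00122, and 0.0843 without the block).

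**Figure D3:**
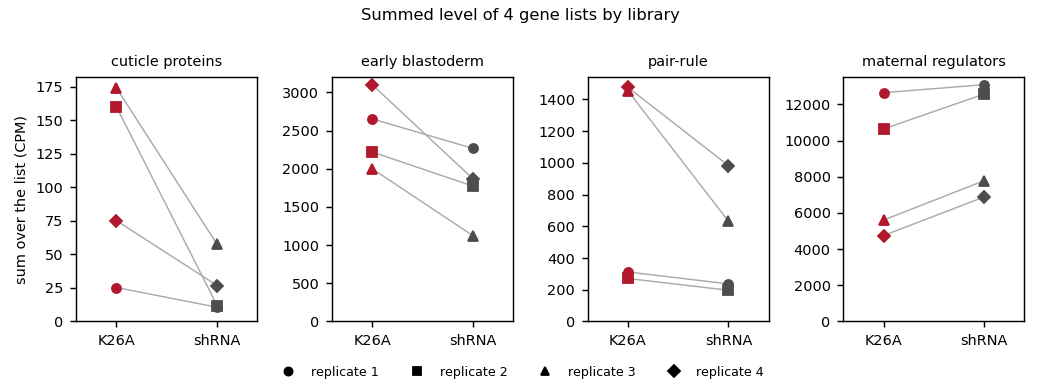
Sum of CPM over the members of 4 gene lists (vertical axis from 0) in each library of rescue K26A (red, left) and HDAC3 shRNA (grey, right), with lines joining libraries of the same replicate number. Cuticle sums reach 160 and 174 CPM in rescue K26A replicates 2 and 3, pair-rule and early blastoderm sums are higher and maternal regulator sums lower in rescue K26A in each pair.

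In replicates 1 and 2 alone the cuticle median was 3.78 over the 52 members that this fit held, and in replicates 3 and 4 alone it was 1.65. Several other lists of late embryonic tissues had positive medians with few calls, and apart from the hemocyte list these medians were larger in replicates 1 and 2 than in replicates 3 and 4. Of 18 tested sarcomere genes 2 were higher (median 1.20), and neither was called without the block. The sarcomere median was 2.04, with 13 genes called higher, in replicates 1 and 2 alone, and 0.14, with 0 called, in replicates 3 and 4 alone, where the medians of all genes tested were 0.04 and 0.00. The muscle actin gene Act87E had 8.0, 39.0, 36.4 and 38.4 CPM in rescue K26A, against 4.61, 5.80, 19.7 and 26.3 CPM in HDAC3 shRNA (log2 change 1.33, SE 0.29, adjusted p = 0.00853, and 1.0 without the block). Its groups overlapped, and without rescue K26A replicate 2 the change was 0.78, under the 2-fold limit. The muscle LIM protein gene Mlp84B (1.07, adjusted p = 0.0324) lost its call without any 1 HDAC3 shRNA library or without rescue K26A replicate 2, 3 or 4 (adjusted p up to 0.0974).

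Of 19 tested genes for chitin and the apical extracellular matrix, only Gasp, for a chitin-binding protein of the tracheae, was higher (1.47, adjusted p = 0.0247, and 0.824 without the block), and the median of that list was 0.31 (0.48 in replicates 1 and 2 alone, -0.13 in replicates 3 and 4 alone). The call of Gasp was lost without HDAC3 shRNA replicate 2 or 4 or rescue K26A replicate 2 or 4 (adjusted p up to 0.0938). Of 12 tested Osiris genes, a family expressed in cuticle-forming epithelia, only Osi2 was higher (3.35, adjusted p = 0.0470, and 0.487 without the block), a call lost in 18 of the fits that left out 1 library. The Osiris sum was 77.5, 76.2, 11.8 and 71.2 CPM in rescue K26A, against 2.45, 53.7, 123 and 86.9 CPM in HDAC3 shRNA, so rescue K26A was the higher in replicates 1 and 2 only. None of 20 tested gut protease and maltase genes (median 1.12), 10 hemocyte genes (median 0.13) or 10 basement membrane genes (median 0.35) was called. The gut median was 1.95 over the 11 members that the fit of replicates 1 and 2 alone held, 0.09 in replicates 3 and 4 alone and 0.26 without rescue K26A replicates 2 and 3, and the basement membrane median was 0.42 in replicates 1 and 2 alone and 0.11 in replicates 3 and 4 alone.

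The lists of blastoderm patterning genes had positive medians, all under 2-fold and larger in replicates 3 and 4 than in replicates 1 and 2. All 8 tested pair-rule genes had a positive log2 change, with a range of 0.40 to 0.84 and a median of 0.70 (0.38 in replicates 1 and 2 alone, 0.86 in replicates 3 and 4 alone). The adjusted p was 0.05 or less for 3 of them, against 3.68% of all genes in that direction, and none reached 2-fold. The sum over the pair-rule genes was 312, 271, 1455 and 1477 CPM in rescue K26A, against 237, 197, 632 and 983 CPM in HDAC3 shRNA, and replicates 3 and 4 were far above replicates 1 and 2 in both genotypes. odd, a pair-rule repressor, had 51.4, 43.2, 204 and 207 CPM in rescue K26A, against 33.6, 28.6, 81.6 and 126 CPM in HDAC3 shRNA. It was higher in each pair, with overlapping groups (log2 change 0.84, SE 0.20, adjusted p = 0.0161, and 1.0 without the block). run, another pair-rule transcription factor gene, was at 0.75 (SE 0.21, adjusted p = 0.0318, and 1.0 without the block).

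Of 14 tested genes of the dorsal ectoderm and amnioserosa, none was called, all 14 were positive (median 0.60, 0.35 in replicates 1 and 2 alone and 0.70 in replicates 3 and 4 alone), and 5 had an adjusted p of 0.05 or less. The T-box genes Doc3 (0.96, SE 0.23, adjusted p = 0.0132) and Doc2 (0.94, SE 0.22, adjusted p = 0.0134), which act in the amnioserosa, came nearest to the limit, and neither passed without the block (adjusted p = 1.0 for each). Among 12 tested gap and head genes (median 0.55, or 0.30 and 0.68 in the same subsets) gt was at 0.84 (adjusted p = 0.0277, and 0.502 without the block) and kni at 0.82 (adjusted p = 0.0394, and 0.841 without it). The medians were 0.47 over 14 mesoderm genes, 0.47 over 12 neuroectoderm genes, 0.30 over 8 segment polarity genes and 0.22 over 8 Hox genes, with no member called. In replicates 1 and 2 alone these 4 medians were 0.11, 0.05, 0.04 and 0.02, near the 0.04 of all genes tested, and in replicates 3 and 4 alone they were 0.55, 0.61, 0.45 and 0.30. The Hox sum was 23.7, 27.3, 240 and 166 CPM in rescue K26A, against 24.3, 30.4, 169 and 138 CPM in HDAC3 shRNA, lower in the first 2 pairs and higher in the others. The comparisons of these lists with the median of all genes, 0.05, carry no test.

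Early blastoderm genes, which are transcribed in a short burst before gastrulation, included 1 called gene of 10 tested and had a median of 0.54 (0.20 in replicates 1 and 2 alone, 0.64 in replicates 3 and 4 alone). Their sum was 2653, 2220, 2001 and 3101 CPM in rescue K26A, against 2267, 1773, 1124 and 1870 CPM in HDAC3 shRNA. The called gene was Z600, which halts the cell cycle in the prospective mesoderm, with 99.4, 83.7, 119 and 204 CPM in rescue K26A, against 41.7, 46.8, 33.2 and 70.9 CPM in HDAC3 shRNA. Its groups did not overlap (log2 change 1.42, SE 0.34, adjusted p = 0.0149, and 0.303 without the block), and its call was lost without rescue K26A replicate 3 or 4 (adjusted p up to 0.0582).

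RNAs that the mother supplies lay on the other side, mainly in replicates 3 and 4. None of 17 tested maternal regulators was called, none had a positive log2 change (median -0.31, lowest -0.56), and 6 had an adjusted p of 0.05 or less, against 4.36% of all genes in that direction. The median of the list was -0.06, with 0 called and 8 of 17 positive, in replicates 1 and 2 alone, and -0.79, with 4 called lower and 0 positive, in replicates 3 and 4 alone. bcd, the anterior determinant, had 179, 189, 72.9 and 66.6 CPM in rescue K26A, against 198, 234, 124 and 112 CPM in HDAC3 shRNA (log2 change -0.51, SE 0.10, adjusted p = 0.00599, and 1.0 without the block). BicD, an adaptor for RNA transport along microtubules, was at -0.53 (SE 0.09, adjusted p = 0.00164, and 1.0 without the block). The sum over the list was 12649, 10643, 5605 and 4752 CPM in rescue K26A, against 13092, 12574, 7786 and 6882 CPM in HDAC3 shRNA, and was lower in each pair. Maternal RNA declines and zygotic patterning RNA accumulates as embryos age, and whether the rescue K26A pools were further in development was not tested.

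Among 15 tested corepressor and deacetylase genes, Smr was the only one called, and 4 had an adjusted p of 0.05 or less in the lower direction, against 4.36% of all genes. These were Smr, ebi, HDAC11 and Sirt7, and the median of the list was -0.01. ebi, for a further corepressor subunit, was at -0.33 (SE 0.09, adjusted p = 0.0283, and 1.0 without the block), HDAC11 at -0.86 (SE 0.14, adjusted p = 0.00122, and 0.0794 without the block), Sirt7 at -0.24 (adjusted p = 0.0498, and 1.0 without the block) and HDAC1 at -0.01 (adjusted p = 0.949), the last 3 chosen after their values were seen. None of 10 Brahma complex genes (median -0.12), 16 Polycomb group genes (median 0.07) or 9 nuclear lamina genes (median -0.03) was called. Of 16 tested nuclear receptor genes, which include factors that recruit corepressors, none reached 2-fold. The median of this list was 0.06, with 9 members positive (0.19 in replicates 1 and 2 alone, -0.39 in replicates 3 and 4 alone). The 3 members with an adjusted p of 0.05 or less were lower. These were Eip75B at -0.89 (adjusted p = 0.00443, and 0.323 without the block), ftz-f1 at -0.76 (adjusted p = 0.000962, and 1.0 without it) and, chosen after its values were seen, EcR at -0.52 (adjusted p = 0.00660, and 1.0 without the block). None of 84 cytoplasmic ribosomal protein genes (median 0.04), 70 mitochondrial ribosomal protein genes (0.05), 67 genes of oxidative phosphorylation (0.06) or 36 proteasome genes (-0.07) was called. The same held for 13 germ plasm and piRNA genes (-0.16), 13 early cell cycle genes (0.03), 15 septate junction genes (-0.08), 13 neuronal genes (0.20) and 12 heat shock genes (0.08).

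Single members of other lists fell. glec, for a carbohydrate-binding protein of glia, had 76.0, 83.8, 43.1 and 32.9 CPM in rescue K26A, against 129, 209, 106 and 62.8 CPM in HDAC3 shRNA (log2 change -1.08, SE 0.26, adjusted p = 0.0158, and 0.380 without the block). Its call was lost without HDAC3 shRNA replicate 2 or rescue K26A replicate 3 or 4 (adjusted p up to 0.0621), and the other 6 tested glial genes were not called. The glial list as a whole had a median of 0.40, with 5 of 7 members positive. ex, an upstream member of the Hippo pathway, had 29.1, 18.2, 62.3 and 29.9 CPM in rescue K26A, against 96.9, 55.1, 74.5 and 44.2 CPM in HDAC3 shRNA (-1.09, SE 0.27, adjusted p = 0.0202, and 1.0 without the block). The groups of both genes overlapped. The call of ex was lost without HDAC3 shRNA replicate 1 or 2 or rescue K26A replicate 2 (adjusted p up to 0.0622).

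Genes singled out in the study were read in the same contrast. CG32772 had 49.2, 48.8, 26.7 and 25.8 CPM in rescue K26A, against 86.1, 91.7, 57.7 and 53.8 CPM in HDAC3 shRNA. Its groups did not overlap, and the change (log2 change -0.95, SE 0.21, adjusted p = 0.00994, and 0.136 without the block) stopped short of 2-fold. sd, the DNA-binding partner of Yorkie, had 59.6, 56.1, 68.8 and 37.6 CPM in rescue K26A, against 104, 109, 97.0 and 65.0 CPM in HDAC3 shRNA (-0.77, SE 0.22, adjusted p = 0.0353, and 0.758 without the block). CG17698 was lower in replicates 2, 3 and 4 and about level in replicate 1, with 13.9, 18.2, 2.32 and 2.77 CPM in rescue K26A, against 13.8, 31.8, 11.2 and 7.37 CPM in HDAC3 shRNA, and did not pass (-0.90, SE 0.35, adjusted p = 0.127).

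Cad99C, a cadherin of microvilli, had 2.54, 3.42, 13.0 and 8.91 CPM in rescue K26A, against 2.45, 3.32, 13.7 and 5.53 CPM in HDAC3 shRNA (0.17, SE 0.27, adjusted p = 0.782). The Dpp antagonist gene sog was at 0.51 (SE 0.25, adjusted p = 0.242). Of the marker genes of the hairpin stock, y (0.31, adjusted p = 0.515), v (0.57, adjusted p = 0.547) and sc (0.13, adjusted p = 0.773) did not pass, nor did w (0.05, adjusted p = 0.959), and sev was too scarce to be tested.

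Whether the K26A protein left embryos at another state than the other rescue proteins was asked in direct contrasts of the fit to all 24 libraries, which HDAC3 shRNA libraries enter only through the block and the estimate of spread. Against rescue WT, 16 genes (0.160%) were higher and 187 (1.87%) lower in rescue K26A, and against rescue HEBI 46 (0.460%) were higher and 137 (1.37%) lower. Without the block these counts were 4 and 9 against rescue WT and 8 and 14 against rescue HEBI. The 187 fell to 29 without rescue WT replicate 4, 39 without rescue K26A replicate 2, 70 without rescue WT replicate 2, 90 without rescue WT replicate 1, 91 without rescue K26A replicate 4 and 106 without rescue K26A replicate 1, and replicates 3 and 4 alone gave 4. The 16 became 9 without rescue WT replicate 2 or replicate 4. The 46 higher than rescue HEBI became 26 without rescue K26A replicate 1 and 106 without rescue K26A replicate 3, and the 137 lower became 57 without rescue K26A replicate 1, 71 without rescue HEBI replicate 1 and 274 without rescue K26A replicate 3.

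Genes of the apical matrix, blood cells and basement membrane were among those lower than in rescue WT, and the members of these lists that are named, from kkv to Pxn, PPO2, Sr-CI, Ndg and Ppn, were chosen after their values were seen. Of 19 tested chitin and apical matrix genes 6 were lower (median -1.16), namely kkv (chitin synthase), obst-B, the zona pellucida domain genes neo, nyo and m, and the chitinase gene Cht5. kkv had 4.05, 4.26, 9.47 and 9.75 CPM in rescue K26A, against 9.63, 10.6, 16.2 and 23.1 CPM in rescue WT, lower in each pair with an overlap of 1 library (log2 change -1.16, SE 0.22, adjusted p = 0.00967, and 0.663 without the block). That call was lost without rescue WT replicate 4. In HDAC3 shRNA kkv had 2.28, 3.71, 11.0 and 6.04 CPM, and rescue K26A was not called against it (0.31, adjusted p = 0.451).

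Of 10 tested hemocyte genes 3 were lower than in rescue WT. Pxn, the matrix peroxidase that hemocytes secrete, had 1.35, 1.63, 4.96 and 4.76 CPM in rescue K26A, against 4.99, 5.25, 13.7 and 10.4 CPM in rescue WT and 5.13, 4.93, 11.9 and 10.7 CPM in rescue HEBI. It was lower than both (-1.49, SE 0.25, adjusted p = 0.00299 against rescue WT and -1.43, SE 0.25, adjusted p = 0.00127 against rescue HEBI), held when any 1 library was left out, and passed neither without the block (adjusted p = 0.425 and 0.575). PPO2, the prophenoloxidase of crystal cells, had 5.66, 4.99, 6.12 and 9.51 CPM in rescue K26A, against 9.57, 16.4, 19.9 and 19.8 CPM in rescue WT, with no overlap (-1.31, SE 0.30, adjusted p = 0.0209, and 0.184 without the block). The PPO2 call was lost without rescue WT replicate 2 or 4 or rescue K26A replicate 2. The scavenger receptor gene Sr-CI was at -1.02 (adjusted p = 0.00563, and 1.0 without the block), and leaving out rescue WT replicate 1 or rescue K26A replicate 1 or 4 took it under 2-fold.

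Of 10 tested basement membrane genes 2 were lower than in rescue WT. Ndg, which encodes nidogen, had 16.5, 14.1, 30.1 and 23.4 CPM in rescue K26A, against 35.0, 33.9, 52.6 and 52.8 CPM in rescue WT, with no overlap (-1.08, SE 0.22, adjusted p = 0.0149, and 0.595 without the block), and its call was lost without rescue WT replicate 4 or rescue K26A replicate 2. Ppn, for the matrix protein papilin, was at -1.03 (adjusted p = 0.0249). The sarcomere, denticle and Osiris lists had medians of -1.10, -1.09 and -1.94 against rescue WT, with 1 of 18, 2 of 10 and 1 of 12 members called lower. The gut protease and maltase list went the other way, with a median of 1.59 and none of 20 members called. The pair-rule (0.06), gap and head (0.03) and early blastoderm (0.16) medians against rescue WT were close to that of all genes (0.057), and no member of these lists was called.

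**Figure D4:**
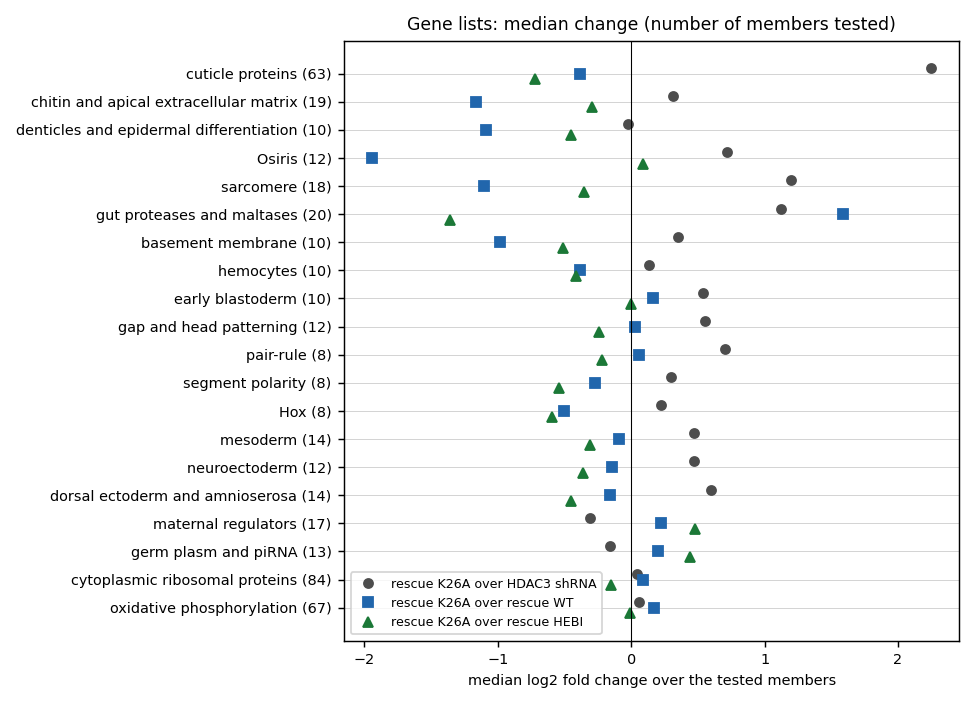
Median log2 change of rescue K26A over HDAC3 shRNA (grey circles), over rescue WT (blue squares) and over rescue HEBI (green triangles) for 20 gene lists, with the number of tested members in brackets. The cuticle median is 2.25 over HDAC3 shRNA, and the chitin, denticle, Osiris, sarcomere and basement membrane medians lie between -1.94 and -0.98 over rescue WT, while the gut median is 1.59.

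A last group of genes differed strongly between the rescue lines. CG34393 (2L from 3175112 to 3200496) was high in rescue K26A alone, with 0.883, 1.12, 5.32 and 4.51 CPM, against 0.416, 0.143, 0.417 and 0.538 CPM in rescue WT, 0.0942 to 0.215 CPM in rescue HEBI and 0.117 to 0.274 CPM in HDAC3 shRNA. It was called over HDAC3 shRNA (log2 change 3.69, SE 0.39, adjusted p = 1.04e-05, and 0.00740 without the block), rescue HEBI (3.98, adjusted p = 6.33e-06, and 0.00327 without it) and rescue WT (2.73, adjusted p = 0.000489, and 0.0653 without it). Rpi, ribose-5-phosphate isomerase of the pentose phosphate pathway (2R from 23355183 to 23356441) and chosen after its values were seen, had 42.0, 42.6, 17.1 and 23.8 CPM in rescue K26A, against 11.1, 10.3, 10.1 and 14.1 CPM in rescue WT and 13.9, 13.3, 11.2 and 12.9 CPM in HDAC3 shRNA. The control had 21.7 to 39.7 CPM, and rescue K26A did not pass against it (0.06, adjusted p = 0.872). Rpi was higher in rescue K26A than in rescue WT and HDAC3 shRNA without overlap (1.27, adjusted p = 0.00873, and 0.0701 without the block, over HDAC3 shRNA, and 1.44, adjusted p = 0.0110, and 0.0400 without it, over rescue WT). The call over rescue WT was lost without rescue WT replicate 2.

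Cpr5C, a cuticle protein gene (X from 5804677 to 5805344), had 2.29, 4.93, 4.24 and 7.22 CPM in rescue K26A, against 0.0463 to 0.0955 CPM in rescue WT and 0.0491 to 0.118 CPM in HDAC3 shRNA. Rescue Y303F, with 3.14, 4.22, 1.68 and 3.54 CPM, and rescue HEBI, with 10.6, 11.8, 16.4 and 11.4 CPM, were high as well. Per the study, rescue Y303F embryos also held much RNA of the endogenous HDAC3 gene, so their values are not those of the mutant protein alone. The change in rescue K26A was 5.52 over HDAC3 shRNA (SE 0.79, adjusted p = 0.000370) and 5.95 over rescue WT (SE 0.83, adjusted p = 0.000624), both held without the block (adjusted p = 0.00255 and 0.00246), and both held when any 1 library was left out. Unlike TwdlD, Cpr65Ea and Cpr51A, Cpr5C was not highest in rescue K26A replicates 2 and 3.

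CG18278 (FBgn0033836, 2R from 13408042 to 13409887) was all but missing from rescue K26A, with 0.104, 0, 0.134 and 0.181 CPM, against 1.55, 1.53, 3.29 and 0.961 CPM in rescue WT, 11.0, 9.07, 5.6 and 5.17 CPM in HDAC3 shRNA, and 1.03 to 2.17 CPM in the control. It was lower than in HDAC3 shRNA (-6.09, SE 0.48, adjusted p = 4.51e-07), rescue WT (-4.04, SE 0.49, adjusted p = 0.000152), rescue HEBI (-5.24, SE 0.48, adjusted p = 1.39e-06) and the control (-3.83, adjusted p = 3.08e-05). The first 3 of these calls held without the block (adjusted p = 4.18e-06, 0.00104 and 3.79e-05) and when any 1 library was left out. Annotated exons of another gene cover 16.2% of its exon bases.

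The reverse was seen for genes that were high in other rescues and low in rescue K26A. They were low in the control as well, with means of 0.123 CPM for Drsl5, 0.140 CPM for Tengl3 and 0.221 CPM for CG43755. Drsl5, a drosomycin-like antifungal peptide gene (3L from 3316781 to 3317144), had 0.260, 1.12, 0.581 and 0.482 CPM in rescue K26A, against 5.83, 10.7, 13.1 and 25.1 CPM in rescue WT and 0 to 0.118 CPM in HDAC3 shRNA. It was called over HDAC3 shRNA (3.28, SE 0.65, adjusted p = 0.00497, and 0.0216 without the block) and under rescue WT (-4.41, SE 0.43, adjusted p = 1.26e-05, and 0.000236 without the block). Tengl3 (2L from 2237076 to 2238251) had 0.312, 0.336, 0.849 and 0.783 CPM in rescue K26A, against 3.27, 5.45, 6.02 and 6.42 CPM in rescue WT and 0.0392 to 0.197 CPM in HDAC3 shRNA (2.67, adjusted p = 0.00143 over HDAC3 shRNA, and -3.23, adjusted p = 1.70e-05 against rescue WT).

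CG43755 (2L from 325522 to 329761) had 0.156, 0.560, 0.491 and 0.662 CPM in rescue K26A, against 9.51, 10.7, 36.3 and 31.9 CPM in rescue HEBI (-5.45, SE 0.34, adjusted p = 7.48e-09, and 3.79e-05 without the block) and 0.0583 to 0.157 CPM in HDAC3 shRNA. Its call over HDAC3 shRNA (1.96, adjusted p = 0.0266, and 0.671 without the block) was lost without HDAC3 shRNA replicate 3 or 4 or rescue K26A replicate 2 or 4 (adjusted p up to 0.104). CG34393, Tengl3, CG43755, CG18278 and Rpi lie on the second chromosome, which also carries the transgenes, and Cpr5C and Drsl5 lie on X and 3L. Of all genes tested, 17.2% lie on 2L and 19.9% on 2R. Of the 102 genes higher than in HDAC3 shRNA, 9.80% lie on 2L and 24.5% on 2R. Of the 45 lower genes, 9 lie on 2L and 8 on 2R. Whether genes that differ between the rescue lines favour the second chromosome was not tested. Whether the levels of the named genes belong to the lines or to the proteins cannot be told apart, since each protein was supplied by 1 line.

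**Figure D5:**
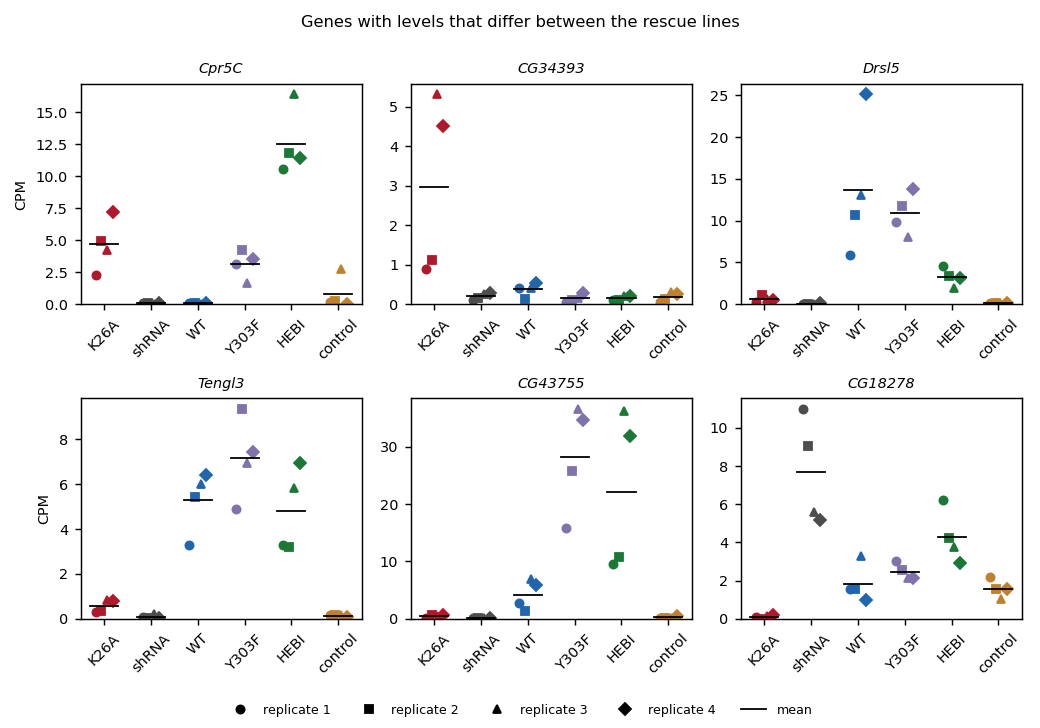
Level in CPM (vertical axis from 0) of 6 genes in the 4 libraries of rescue K26A (left), HDAC3 shRNA, rescue WT, rescue Y303F, rescue HEBI and control, with the replicate number as the shape of a point and the mean as a line. CG34393 is high in rescue K26A alone, CG18278 is near 0 there, and Drsl5, Tengl3 and CG43755 are far higher in other rescues.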

How the data were processed

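Total RNA of whole Drosophila embryos, 2 to 4 h old, was sequenced from 4 biological replicates of each of 6 genotypes. The authors aligned reads to dm6 with STAR, and the deposited table holds raw counts per FlyBase identifier made with featureCounts. The submitters' processing notes also name DESeq2. Not given in the sources used here: tool versions, annotation and strand setting, so it is not known whether a gene and its antisense partner were told apart. Symbols and coordinates came from Ensembl release 115, which paired 17253 of 17559 identifiers. The 306 unpaired identifiers were kept, with 5.23% to 6.20% of the counts per library.

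Tests were run with edgeR 4.0.16 under R 4.3.3. Library sizes were normalised with TMM (trimmed mean of M-values) and genes filtered with filterByExpr, which left 10003 genes. A quasi-likelihood model with genotype and replicate number was fitted to all 24 libraries, and contrasts with the control were read from this fit only. A gene was called where p, adjusted after Benjamini and Hochberg, was no higher than 0.05 and the change was 2-fold or more, as in the study. All adjusted p-values are from edgeR, and CPM are counts scaled to a library of 1 M. With 3 counts over the 4 libraries of a group taken as the limit of detection, that limit was 0.0394 CPM in rescue K26A and 0.0359 CPM in HDAC3 shRNA, counting error only. The procedure was tested on counts simulated from the fitted model, in which the replicate term held for every library. The simulation therefore cannot give the rate of false calls that rest on single deviating libraries. In it the procedure recovered 17 of 50 genes changed 2-fold, which is also the limit of the call. It recovered 42 of 50 changed 4-fold and 46 of 50 changed 8-fold. Of 9681 unchanged genes it called 2. A gene that was not called may therefore still have changed.

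Replicate numbers come from the labels, which do not say what they stand for. Over 60 pairs of libraries with the same number from different genotypes, deviations from genotype means correlated at r = 0.184 to 0.797, and 23 of 24 libraries had their best match among those of their own number. The samples were therefore treated as paired. No replicates were duplicates, since the lowest chi-square per gene over 12 pairs was 45.7.

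The comparison, the gene lists and the rule for named genes were chosen with earlier results of these data known. The rule took the 12 higher and 12 lower genes with the largest change among those with a symbol, a mean of at least 5 CPM in the higher genotype and 1 direction in all 4 pairs; up to 4 called members of each list, or 2 members with the smallest adjusted p where none was called; the target, its neighbours, genes the study singles out and stock markers; and 4 called genes with the largest difference from rescue WT and 4 from rescue HEBI. Other genes are marked as chosen after their values were seen. A list is given by its calls and its median, with no test. Alternatives were library totals, DESeq2 size factors, no filter, no block, only the compared genotypes, DESeq2 1.42.0, replicates 1 and 2 or 3 and 4 alone and each library left out. The fit without rescue K26A replicates 2 and 3 was added after seeing the data.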

Additional observations from a re-analysis of the deposited data

Results flagged for a closer look

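Among 140 groups of 4 libraries looked at for the named genes (70 genes in rescue K26A and in HDAC3 shRNA), 8 had a library that stood apart from the other 3, where chance gives about 1 in 20. In HDAC3 shRNA the single library with a count of a gene otherwise at 0 was replicate 2 for TwdlD (0.0488 CPM), replicate 3 for Cpr65Ea (0.0491 CPM) and replicate 4 for Cpr64Ab (0.0392 CPM). In rescue K26A the only count of lncRNA:CR40469 was in replicate 4 (0.0602 CPM). A gene with a count in 1 library and 0 in the other 3 always meets the rule, so the rate of 1 in 20 does not apply to these genes. CG15022 stood at 0.706 CPM in HDAC3 shRNA replicate 4, above 0.0488 to 0.0583 CPM in the other 3. lncRNA:CR43963 stood at 8.87 CPM in HDAC3 shRNA replicate 2, above 2.28 to 2.70 CPM. Tengl3 stood at 0.197 CPM in HDAC3 shRNA replicate 3, above 0.0392 to 0.0583 CPM. Act87E stood at 8.0 CPM in rescue K26A replicate 1, below 36.4 to 39.0 CPM.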

How the results depend on the processing

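The counts of called genes depended on the pairing and on which replicates were used. Without the replicate block, higher and lower genes numbered 12 and 7 against HDAC3 shRNA, 4 and 9 against rescue WT, and 8 and 14 against rescue HEBI. Replicates 1 and 2 alone gave 182 higher against HDAC3 shRNA, 37 and 330 against rescue WT, and 464 and 740 against rescue HEBI. Replicates 3 and 4 alone gave 52 and 131, 1 and 4, and 12 and 9. The fit of only the compared genotypes gave 52 higher against HDAC3 shRNA and 8 and 8 against rescue HEBI, and DESeq2 with the block gave 33 and 296 against rescue WT. Without both rescue K26A libraries 2 and 3, an alternative chosen after seeing the data, 19 and 20 were called against HDAC3 shRNA and 6 and 14 against rescue WT. Leaving out 1 library at a time gave 58 to 122 higher and 37 to 71 lower against HDAC3 shRNA, 9 to 20 and 29 to 238 against rescue WT, and 26 to 106 and 57 to 274 against rescue HEBI. The cause of these shifts was not tested. Other scalings and no filter kept every count within 1.5 times. No named gene reversed. The 136 named genes tested include genes that were never called and so had no call to lose. Of the 136, 42 lost their call without the block, and 31 without the pair of rescue K26A libraries. Over all genes, 12 of the 102 higher and 7 of the 45 lower calls stood without the block.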
